A study of Mus musculus with 10 samples.

Results

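The 10 transcripts described here encode RNA-binding proteins that set the splicing program of neurons: *Ptbp1*, *Ptbp2*, *Rbfox1*, *Rbfox2*, *Rbfox3*, *Nova1*, *Nova2*, *Srrm4*, *Elavl3* and *Elavl4*. They were chosen by name, and each matched 1 of the 18444 genes in the deposited table. All 10 passed the filter used for testing, a mean of at least 10 normalized counts, and the lowest of them was *Ptbp1* with a mean of 1605. Poly-A-selected mRNA was sequenced with a stranded kit from the whole brain at postnatal day 3. The mice were C57BL/6N males, of which 5 were wild type (WT) and 5 were *Arid1b* heterozygotes (*Arid1b*+/-, HT). In the heterozygotes, 1 allele carries a deletion targeted to exon 5, with TT inserted in its place, which truncates ARID1B. The edit was made with Cas9 nickase in the germline, so that it is not limited to a cell type, and the animals come from 1 edited line. Dams reared HT and WT pups together, but the labels do not say which pups shared a dam. A normalized count is the estimated number of reads of a gene divided by the size factor of its library, and 1 whole-brain library averages all cell types.

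PTBP1 is the polypyrimidine tract-binding protein of neural progenitors and non-neuronal cells, where it keeps neuron-specific exons out of mature mRNA. Among the exons it blocks is an exon of *Ptbp2*, the neuronal paralog, whose mRNA is degraded by nonsense-mediated decay when that exon is skipped. When progenitors become neurons, the microRNA miR-124 lowers PTBP1, and PTBP2 takes its place until neurons mature. The RBFOX, NOVA and SRRM4 proteins then promote or block neuronal exons through their own motifs, and the neuronal ELAVL (Hu) proteins control splicing, stability and translation of U-rich transcripts.

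The exon of *Ptbp2* that PTBP1 blocks is shown with its counterpart in *Ptbp1*, because it is the point at which the paralogs are linked. In GENCODE M21 on GRCm38, exon 10 of 14 of *Ptbp2* lies at chr3:119724612-119724645 on the minus strand, and the matching exon 10 of 14 of *Ptbp1* lies at chr10:79862014-79862047 on the plus strand. Both are fully coding and 34 bases long, which leaves 1 base after whole codons, so that skipping shifts the reading frame. Capitals mark the exon, and the 20 lower-case bases on each side belong to the flanking exons of the spliced transcript, read 5′ to 3′.
*Ptbp1* exon 10: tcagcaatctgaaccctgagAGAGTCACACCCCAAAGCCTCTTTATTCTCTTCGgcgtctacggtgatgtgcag
*Ptbp2* exon 10: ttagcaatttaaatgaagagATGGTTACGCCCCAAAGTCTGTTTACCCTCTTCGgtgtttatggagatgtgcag
The 2 exons were identical at 26 of 34 positions. The annotation lists 2 transcripts that skip the exon in each gene, and all of them are classed as nonsense-mediated decay. The deposited values are per gene, so they hold the sum of transcripts with and without this exon and give no measure of its inclusion.

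The edited gene was checked first. *Arid1b*, a subunit of the BAF chromatin-remodeling complex, had normalized counts of 2372, 2230, 2253, 1505 and 2142 in HT 1 to HT 5 and of 3386, 3155, 3597, 3429 and 3108 in WT 1 to WT 5. Every HT library was below every WT library. The means were 2101 ± 343 (SD) over the 5 HT libraries and 3335 ± 203 (SD) over the 5 WT libraries, and the log2 fold change was -0.68 ± 0.11 (SE) with a limma adjusted p of 0.390. Library HT 4 held the lowest count, and without it the log2 fold change was -0.57 with a limma adjusted p of 2.52e-04. *Arid1b* also passed the threshold with HT 4 kept, when samples were weighted (-0.60; limma adjusted p = 6.87e-04) or the trend on transcript length was removed (-0.65; limma adjusted p = 1.42e-05).

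HT 4 stood apart from the other libraries. Its first principal component score was 53.9, against -23.4 to 9.81 in the other 9, and transcript length was correlated with the deviations of its genes at a Spearman rho of -0.457 across genes, against -0.162 to 0.305. Totals were 27.2 M normalized counts in HT 4 and up to 29.03 M in the others (M, 1000000). The results for the regulators are therefore given with and without HT 4. In all 10 libraries the markers of neurons, of neural progenitors and radial glia, of astrocytes and of the oligodendrocyte lineage were detected, with 0 of 28 markers at 0. A whole-brain library cannot tell fewer cells of a type from less RNA per cell.

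None of the 10 regulators passed the test of HT against WT in limma. With all libraries that fit did not call *Arid1b* either (limma unadjusted p = 2.29e-05, adjusted p = 0.390). A lack of calls therefore does not show a lack of change. With all libraries, 0 of 10 had an adjusted p under 0.05, against 0 of 17020 genes (0%), and 0 of 10 had an unadjusted p under 0.05, against 580 genes (3.41%). The HT and WT libraries overlapped for each of the 10, while they did not overlap for 107 of all genes (0.629%). All 10 adjusted p values were 1.00. The log2 fold changes ran from -0.11 (*Ptbp1*) to 0.10 (*Nova1*), with 3 above 0 and 7 below (46.4% of all genes were above 0), a median of -0.025 and an all-gene median of -0.0074. Without HT 4, 9 lay above 0 and 1 below (49.6% of all genes were above 0), with a median of 0.045, and 6 of the 10 changed sign. The adjusted p was then under 0.05 for 0 of 10 regulators and 2 of 17020 genes (0.0118%), and the unadjusted p was under 0.05 for *Rbfox1* (higher, against 4.69% of all genes) and *Ptbp1* (lower, against 3.71%), or 2 of 10 against 1429 genes (8.4%). The groups still overlapped for all 10 regulators, against 504 genes without overlap (2.96%).

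**Figure D1:**
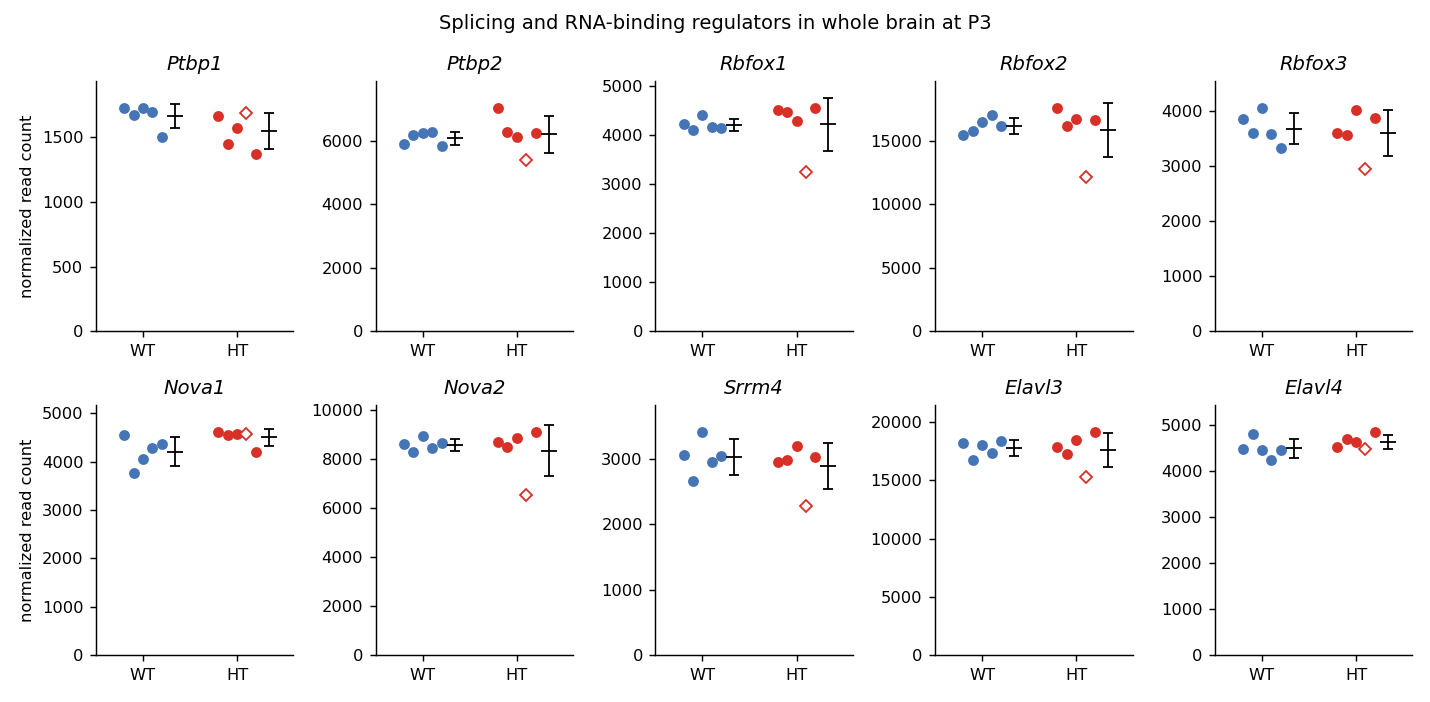
Normalized read counts of the 10 regulators (y axes, from 0) in WT (blue) and HT (red), with 1 point per library, the mean and SD of the group beside the points, and HT 4 as an open diamond. HT 4 is the lowest of all 10 libraries for 7 regulators, and the groups overlap for each of the 10.

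The polypyrimidine tract-binding proteins come first, as the pair that changes over at the start of neuronal differentiation. *Ptbp1* (ENSMUSG00000006498; chromosome 10, 79854427 to 79864771, plus strand) had 1663, 1447, 1570, 1685 and 1370 normalized counts in HT 1 to HT 5 and 1726, 1670, 1724, 1696 and 1501 in WT 1 to WT 5. The 3 lowest libraries were HT 5, HT 2 and WT 5, and the groups overlapped. The means were 1547 ± 137 (SD) over the 5 HT libraries and 1664 ± 93.5 (SD) over the 5 WT libraries. The log2 fold change was -0.11 ± 0.067 (SE; 95% confidence interval -0.25 to 0.038), a ratio of HT to WT between 83.9% and 103%, and the exact permutation p was 0.175. Without HT 4 the log2 fold change was -0.14 (limma adjusted p = 0.576; exact permutation p = 0.0952).

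*Ptbp1* is the regulator whose count is least secure. Of the 31-base words in its transcripts, 11.5% occur in another gene, nearly all in the processed pseudogene *Gm4900*. On the opposite strand, exons of *Plppr3*, which codes for a neuronal membrane protein, share 251 bases (5.30%) of the *Ptbp1* exon sequence, and *Plppr3* had a mean of 7950 normalized counts, 495% of that of *Ptbp1*. Whether the counting used the strand is not stated in the sources used here. *Plppr3* had means of 8001 in HT and 7898 in WT.

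*Ptbp2* (ENSMUSG00000028134; chromosome 3, 119718742 to 119784466, minus strand) had 7028, 6253, 6104, 5396 and 6224 normalized counts in HT 1 to HT 5 and 5901, 6158, 6238, 6264 and 5813 in WT 1 to WT 5. HT 1 was the highest and HT 4 the lowest library, with all WT libraries between them. The means were 6201 ± 580 (SD) over the 5 HT libraries and 6075 ± 205 (SD) over the 5 WT libraries, a log2 fold change of 0.025 ± 0.062 (SE; -0.11 to 0.16) with an exact permutation p of 0.722. Without HT 4 the log2 fold change was 0.074 (exact permutation p = 0.190), and without HT 1 it was -0.021.

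The balance of the pair was taken as the log2 ratio of *Ptbp1* to *Ptbp2* within each library, in which the size factor cancels apart from the added pseudocount of 1. It was -2.08, -2.11, -1.96, -1.68 and -2.18 in HT 1 to HT 5 and -1.77, -1.88, -1.85, -1.88 and -1.95 in WT 1 to WT 5. HT 4 had the highest ratio of all, and the other 4 HT libraries had the 4 lowest. *Ptbp1* counts were thus 22.0% to 31.2% of *Ptbp2* counts in HT and 25.8% to 29.3% in WT. As a percentage, the mean was 25.2% ± 3.65 (SD) over the 5 HT libraries and 27.4% ± 1.24 (SD) over the 5 WT libraries. The difference of the mean log2 ratios, -0.13 ± 0.093 (SE), did not pass the exact permutation test (two-sided p = 0.183).

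Leaving out HT 4 changed this outcome. The HT mean became -2.08 ± 0.094 (SD, n = 4), or 23.6% ± 1.55 as a percentage, against a WT mean of -1.87 ± 0.065 (SD, n = 5). The difference was -0.21 ± 0.055 (SE), with an exact permutation p of 0.00794. No smaller value is possible with 4 HT and 5 WT libraries. The separation was narrow at its edge, as HT 3 (25.7%) lay just below WT 5 (25.8%). In the same 9 libraries, HT lay below WT without overlap in the counts of 1.21% of all genes, and below or above in 2.96%. These shares are for counts of single genes, and no such share was computed for ratios. With HT 4 kept and the trend on transcript length removed from every library, the difference was -0.13 (exact permutation p = 0.270).

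Markers of neural progenitors and radial glia are given beside this ratio, and whether the 2 are associated was not tested. The marker score, the mean log2 deviation of 9 genes from their means over the 10 libraries, was -0.011, -0.062, -0.068, 0.22 and -0.39 in HT 1 to HT 5 and 0.20, -0.029, 0.10, 0.072 and -0.037 in WT 1 to WT 5. HT 4 was also the highest of the 10 libraries in the summed counts of astrocyte markers (28516, against 21638 to 27287 in WT) and of oligodendrocyte lineage markers (9908, against 7637 to 9118 in WT). The libraries with the highest ratios, HT 4 and WT 1, also had the highest scores, and HT 5 had the lowest of both. HT 1 went the other way, with a lower ratio than WT 2 and WT 5 but a higher score. Of the 9 markers, 7 were lower in HT with all libraries (46.4% of all genes were above 0), with a median log2 fold change of -0.13. The unadjusted limma p was under 0.05 for 2 of the lower markers (3.41% of all genes in either direction). Without HT 4, 9 were lower (49.6% of all genes were above 0), with a median of -0.21. The unadjusted limma p was then under 0.05 for 3 of them (lower in 3.71% of all genes). All 9 markers were short of the threshold after adjustment. Their summed counts ranged from 23152 to 34354 in HT, with HT 4 the highest, and from 26114 to 28599 in WT, and 0 of 9 markers were at 0. Not every progenitor marker was high in HT 4. HT 4 was the highest of all libraries for *Vim* (5928), *Fabp7* (20102), *Sox2* (1678) and *Hes5* (505). For *Pax6*, *Hes1* and *Top2a* it was above the WT mean but not the highest. For *Mki67* (1526) and *Nes* (1746) it was below the WT means of 1820 and 1812. The 8 neuron markers had a median log2 fold change of 0.029 with all libraries and 0.074 without HT 4. Their sums were 192323 to 226433 in HT, of which HT 4 was the lowest, and 209266 to 216605 in WT. Single neuron markers split in HT 4. It was the lowest of all libraries for *Map2* (32948), *Dcx* (18795) and *Syt1* (12072). For *Tubb3* (51819), *Stmn2* (48969), *Nefl* (10915) and *Nefm* (5965) it was the highest, and for *Snap25* it was neither. The marker scores, sums and counts were taken without removing the trend on transcript length, on which HT 4 stood apart (Spearman rho -0.457 across genes). The part of the length trend in these marker levels was not tested. The part of these marker levels in the *Ptbp1* to *Ptbp2* ratio was not tested.

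**Figure D2:**
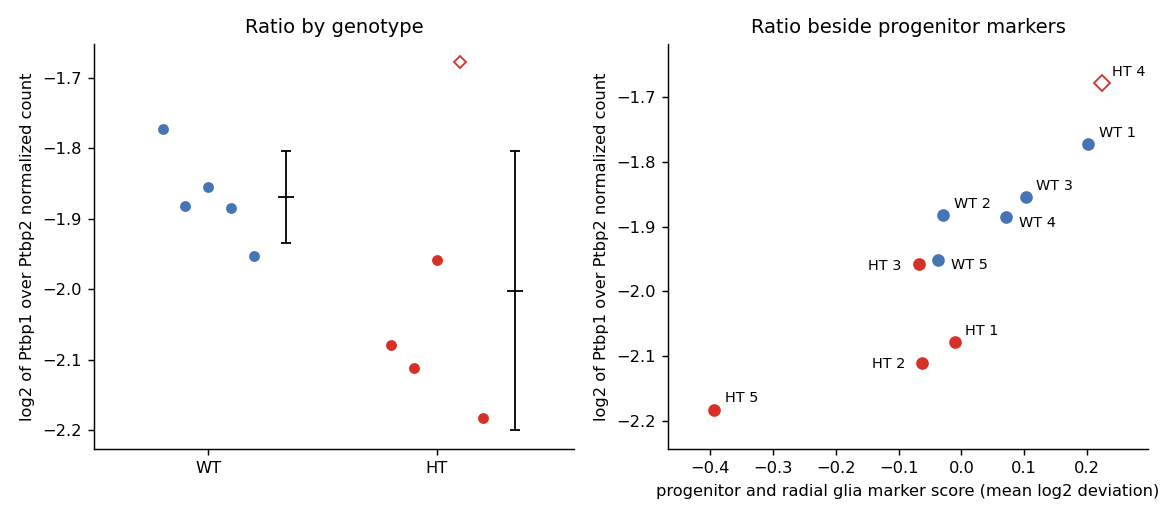
Log2 ratio of *Ptbp1* to *Ptbp2* normalized counts (y axes) by genotype on the left, with mean and SD beside the points, and against the progenitor and radial glia marker score of the same library (x axis, mean log2 deviation) on the right. WT is blue, HT red and HT 4 an open diamond. HT 4 lies highest at -1.68, the other 4 HT libraries lie at -1.96 or lower, and HT 4 and WT 1 have both the highest ratios and the highest scores. HT 1 has a lower ratio but a higher score than WT 2 and WT 5.

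The RBFOX proteins bind UGCAUG motifs and promote or block exons according to the side on which they bind. *Rbfox1* (ENSMUSG00000008658; chromosome 16, 5885355 to 7411526, plus strand), which acts in neurons and muscle, had 4524, 4483, 4292, 3262 and 4564 normalized counts in HT 1 to HT 5 and 4236, 4111, 4412, 4165 and 4159 in WT 1 to WT 5. HT 4 was far below every other library, and 3 of the other 4 HT libraries were above all WT libraries. The means were 4225 ± 548 (SD) over the 5 HT libraries and 4217 ± 118 (SD) over the 5 WT libraries, with a log2 fold change of -0.0077 ± 0.082 (SE; -0.19 to 0.17). Without HT 4 the log2 fold change was 0.083 ± 0.036 (SE; 0.0053 to 0.16), and although the exact permutation p was 0.0317, the limma adjusted p was 0.573.

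*Rbfox2* (ENSMUSG00000033565; chromosome 15, 77078990 to 77307004, minus strand), like *Rbfox1*, is also used outside the nervous system. It had 17625, 16210, 16732, 12157 and 16669 normalized counts in HT 1 to HT 5 and 15491, 15763, 16510, 17056 and 16164 in WT 1 to WT 5. HT 4 was again the lowest and HT 1 the highest. Its means were 15879 ± 2143 and 16197 ± 617 (SD, n = 5 HT and 5 WT), and the log2 fold change was -0.040 (95% confidence interval -0.22 to 0.14) with all libraries and 0.054 (-0.023 to 0.13) without HT 4.

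*Rbfox3* (ENSMUSG00000025576; chromosome 11, 118489762 to 118911597, minus strand) encodes the antigen NeuN, a marker of maturing neurons. It had 3598, 3570, 4018, 2951 and 3885 normalized counts in HT 1 to HT 5 and 3865, 3597, 4063, 3579 and 3326 in WT 1 to WT 5. Apart from HT 4 the groups were interleaved. The log2 fold change was -0.037 (95% confidence interval -0.21 to 0.14) with all libraries and 0.033 (-0.089 to 0.16) without HT 4. Within the family, the log2 ratio of *Rbfox1* to *Rbfox2* was -1.91 ± 0.051 over the 5 HT libraries and -1.94 ± 0.062 over the 5 WT libraries, and that of *Rbfox3* to *Rbfox2* was -2.14 ± 0.10 and -2.14 ± 0.13 (SD). In HT 4 these ratios were -1.90 and -2.04, the first inside and the second just above the range of the other HT libraries, so the 3 transcripts were low together in that library.

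The NOVA proteins bind clusters of a short CA-containing motif and control exons of synaptic and axon guidance transcripts. *Nova1* (ENSMUSG00000021047; chromosome 12, 46694517 to 46818929, minus strand) had 4621, 4543, 4566, 4579 and 4202 normalized counts in HT 1 to HT 5 and 4541, 3761, 4063, 4289 and 4356 in WT 1 to WT 5. The 4 highest libraries were HT 1 to HT 4, while HT 5 lay below 3 of the WT libraries. The means were 4502 ± 170 (SD) over the 5 HT libraries and 4202 ± 300 (SD) over the 5 WT libraries, and the log2 fold change was 0.10 ± 0.056 (SE; 95% confidence interval -0.019 to 0.22) with an exact permutation p of 0.0952. It was the highest of the 10, while *Ptbp1* was farther from 0 in the other direction, and it changed little without HT 4 (0.095; exact permutation p = 0.167). Of its 31-base words, 3.25% occur in another gene, chiefly the overlapping model *Gm33869*.

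*Nova2* (ENSMUSG00000030411; chromosome 7, 18925888 to 18965319, plus strand), the NOVA member of the neocortex, had 8685, 8457, 8857, 6508 and 9107 normalized counts in HT 1 to HT 5 and 8613, 8260, 8918, 8421 and 8651 in WT 1 to WT 5. HT 4 was the lowest and HT 5 the highest library, with the rest interleaved. The log2 fold change was -0.052 (95% confidence interval -0.22 to 0.12) with all libraries and 0.034 (-0.040 to 0.11) without HT 4. The log2 ratio of *Nova1* to *Nova2* was -0.88 ± 0.22 over the 5 HT libraries and -1.03 ± 0.098 over the 5 WT libraries (SD). HT 4 had the highest value, -0.51, and without it the HT mean was -0.97 ± 0.10 (SD, n = 4), within the WT range.

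*Srrm4* (ENSMUSG00000063919; chromosome 5, 116439275 to 116591817, minus strand) encodes the activator of neuronal microexons, the very short exons that are spliced in as neurons differentiate. It had 2955, 2988, 3194, 2277 and 3036 normalized counts in HT 1 to HT 5 and 3055, 2670, 3420, 2951 and 3053 in WT 1 to WT 5. The other 4 HT libraries lay inside the WT range and HT 4 below it. The log2 fold change was -0.073 (95% confidence interval -0.27 to 0.12) with all libraries and 0.010 (-0.11 to 0.14) without HT 4. *Srrm4* varied most among WT mice, with a coefficient of variation of 8.88%, against 2.80% for *Rbfox1*, the steadiest.

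The neuronal ELAVL proteins HuC and HuD close the list. *Elavl3* (HuC; ENSMUSG00000003410; chromosome 9, 22015005 to 22052023, minus strand) had 17854, 17262, 18466, 15308 and 19207 normalized counts in HT 1 to HT 5 and 18182, 16726, 18022, 17395 and 18431 in WT 1 to WT 5. HT 4 and HT 5 were the lowest and highest libraries. The log2 fold change was -0.014 (95% confidence interval -0.14 to 0.11) with all libraries and 0.036 (-0.047 to 0.12) without HT 4. A share of 3.75% of its 31-base words occurs in another gene, chiefly *Gm49318*.

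*Elavl4* (HuD; ENSMUSG00000028546; chromosome 4, 110203722 to 110351909, minus strand) had 4534, 4702, 4636, 4491 and 4867 normalized counts in HT 1 to HT 5 and 4485, 4819, 4464, 4255 and 4471 in WT 1 to WT 5. All HT libraries were above 4 of the 5 WT libraries, and WT 2 lay below HT 5 alone. The means were 4646 ± 149 (SD) over the 5 HT libraries and 4499 ± 203 (SD) over the 5 WT libraries. The log2 fold change was 0.047 ± 0.046 (SE; 95% confidence interval -0.053 to 0.15), with an exact permutation p of 0.214, and it was 0.059 without HT 4. The log2 ratio of *Elavl3* to *Elavl4* was 1.92 ± 0.096 over the 5 HT libraries and 1.98 ± 0.10 over the 5 WT libraries (SD), and without HT 4 the HT mean was 1.96 ± 0.054 (SD, n = 4).

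**Figure D3:**
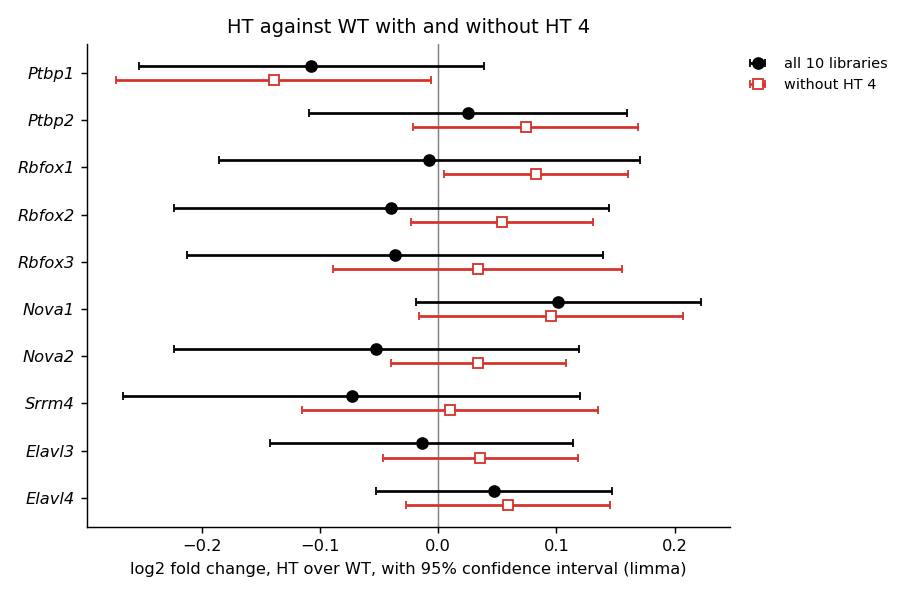
Log2 fold changes of the 10 regulators (x axis, HT over WT) with 95% confidence intervals from limma, with all 10 libraries (black circles) and without HT 4 (red open squares). With all libraries every interval includes 0. Without HT 4 the intervals of *Ptbp1* (below 0) and *Rbfox1* (above 0) no longer do, at adjusted p values of 0.576 and 0.573.

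HT 4 deviated from the other libraries to a different extent among the regulators. Its counts were 73.8% of the mean of the other 9 libraries for *Rbfox2*, 75.0% for *Srrm4*, 75.1% for *Nova2*, 75.4% for *Rbfox1* and 79.3% for *Rbfox3*, and 85.3% for *Elavl3* and 86.8% for *Ptbp2*. In contrast, they were 98.0% for *Elavl4* and 106% for both *Ptbp1* and *Nova1*. The RBFOX transcripts, *Nova2* and *Srrm4* were thus lower in HT 4 while *Ptbp1*, *Nova1* and *Elavl4* were not.

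Removing the trend on annotated transcript length changed these deviations unevenly. With the trend removed, the deviation of HT 4 from the mean of the other libraries on the log2 scale went from -0.41 to -0.034 for *Nova2*, whose median transcript has 8372 bases, and from -0.41 to -0.21 for *Srrm4*. For *Rbfox1* and *Rbfox2*, whose median transcripts are short (1407 and 1765 bases), it went from -0.41 to -0.60 and from -0.44 to -0.58. The longest annotated transcript of *Rbfox2* has 6907 bases, and the trend was not removed with longest lengths. *Nova1*, with 7154 bases, went from 0.08 to 0.40. The length of the transcripts present in these brains was not measured, and the medians are over annotated transcripts.

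**Figure D4:**
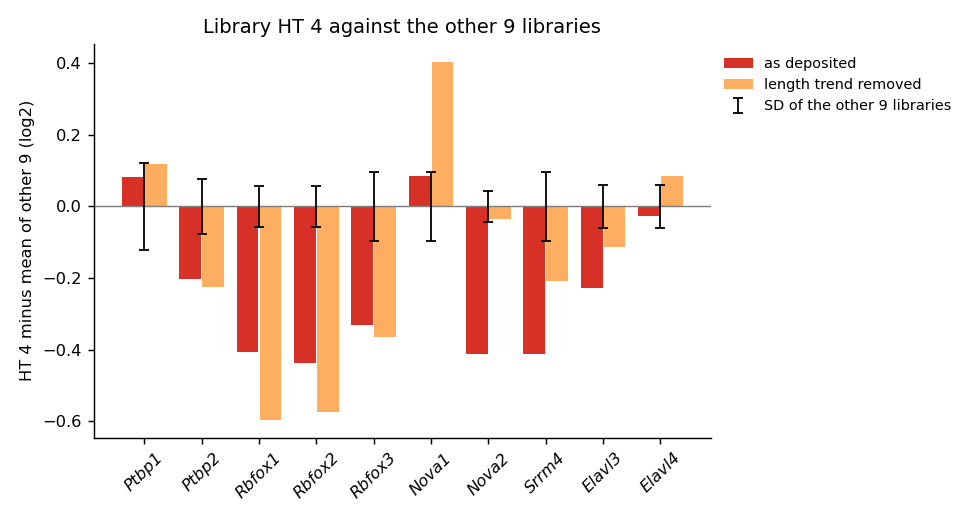
Deviation of HT 4 from the mean of the other 9 libraries (y axis, log2) for each regulator, as deposited (red bars) and with the transcript length trend removed (orange bars); black bars give the SD of the other 9 libraries around 0. The SD is that of the values as deposited. With the trend removed, *Rbfox1*, *Rbfox2*, *Rbfox3*, *Ptbp2*, *Srrm4* and *Elavl3* remain farther below 0 than this SD, while *Nova2* moves to -0.034. *Nova1* (0.40) and *Elavl4* (0.085) then lie farther above 0 than it.

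Levels of different genes were compared as normalized counts per kb of transcript in WT. With the median annotated length, *Rbfox2* was highest at 9177 per kb, followed by *Elavl3* (4410), *Rbfox1* (2997), *Ptbp2* (2380), *Rbfox3* (1487), *Elavl4* (1126), *Nova2* (1024), *Srrm4* (590.1), *Nova1* (587) and *Ptbp1* (535). The WT ranges of neighbors overlapped for *Elavl4* and *Nova2*, for *Srrm4* and *Nova1*, and for *Nova1* and *Ptbp1*, although *Elavl4* and *Nova2* met only at the edges of their ranges and *Elavl4* was the higher in 5 of 5 WT libraries. *Srrm4* was above *Nova1* in 1 and *Nova1* above *Ptbp1* in 4 of the 5. With the longest annotated length, *Elavl3* led at 3540 per kb, *Rbfox2* had 2345 and *Srrm4* was last at 406. *Ptbp2* stood above *Ptbp1* on either scale (1608 against 525 per kb with the longest length), and the order in HT differed from that in WT only for the neighbors *Nova1* and *Srrm4* with the median length.

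**Figure D5:**
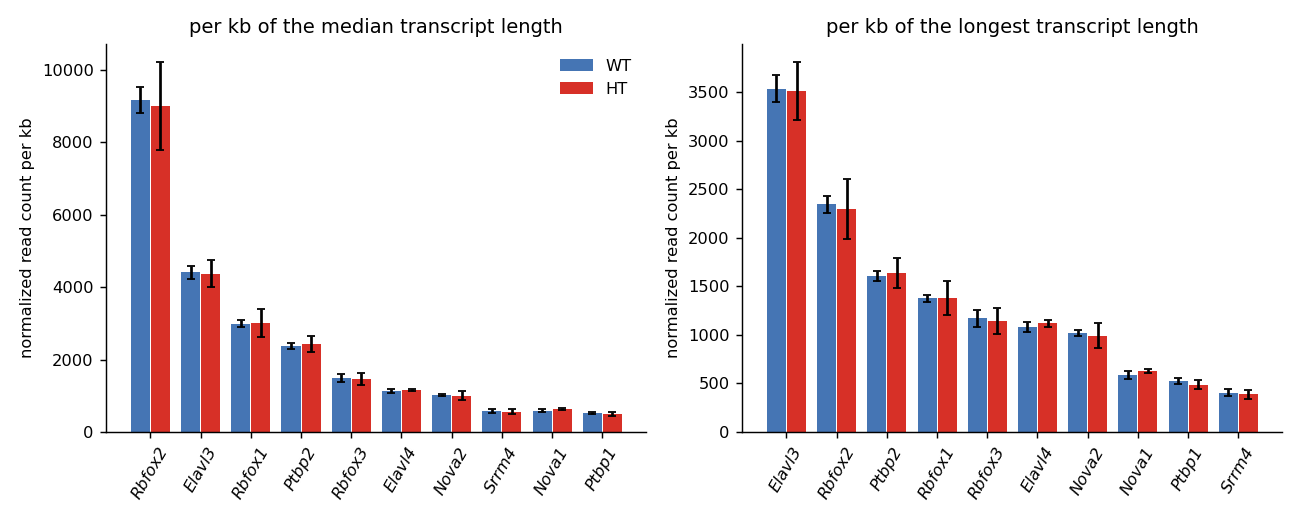
Normalized read counts per kb (y axes, bars from 0) in WT (blue) and HT (red) with SD (n = 5 each), per kb of the median annotated transcript length on the left and of the longest on the right, in order of the WT mean. *Rbfox2* leads with the median length and *Elavl3* with the longest, and *Ptbp1* is last or next to last.

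The nearest relatives of these regulators also did not pass the test. *Ptbp3*, the PTB paralog of blood cells, had 913 ± 156 normalized counts over the 5 HT libraries and 899 ± 38.2 over the 5 WT libraries (SD), and *Elavl1*, the ELAVL protein of all tissues, had 2641 ± 174 and 2729 ± 83.8. *Elavl2* (HuB) had 4602 ± 412 over the 5 HT libraries and 4525 ± 170 over the 5 WT libraries, and *Srrm3*, the second activator of microexons, had 1663 ± 213 and 1536 ± 142. Their log2 fold changes were 0.0046, -0.049, 0.020 and 0.11, and without HT 4 they were 0.10, -0.0079, 0.073 and 0.15, each with a limma adjusted p of at least 0.671.

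A list of 20 other splicing regulators of brain (the CELF, MBNL, KHDRBS, MSI and RAVER families, *Qk*, *Matr3*, *Hnrnpl* and *Hnrnpll*) gave 0 calls in limma, with 5 genes higher and 15 lower in HT and a median log2 fold change of -0.029. Without HT 4 this became 14 higher and 6 lower with a median of 0.023, and 3 of 20 had an unadjusted p under 0.05, all of them higher (4.69% of all genes). These were *Celf2*, *Celf3* and *Celf5*, named after their values were seen, with log2 fold changes of 0.12, 0.11 and 0.11 and limma adjusted p values of 0.583, 0.446 and 0.494. The other CELF genes did not have such a p (*Celf1* 0.020, *Celf4* 0.057 and *Celf6* 0.047). In the fit with all libraries the smallest p in each direction belonged to *Khdrbs2* (0.15), which controls neurexin splicing, and to *Msi1* (-0.082), a translational regulator of neural stem cells. Among 31 general SR proteins and hnRNPs, the splicing factors of all cells, 11 were higher and 20 lower with a median of -0.013, and 0 were called. Their smallest p values belonged to *Hnrnpc* (0.049) and *Hnrnpf* (-0.094). Without HT 4 the split was 10 higher and 21 lower, the median was -0.013, and *Srrm1* (0.13) and *Hnrnpf* (-0.11) had an unadjusted p under 0.05. For *Khdrbs2*, *Msi1* and *Hnrnpc* the values without HT 4 were 0.16, -0.079 and 0.019.

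Transcripts that the regulators are known to control also stayed short of the threshold. Of 9 such genes, 0 were called by limma and 0 had an unadjusted p under 0.05, with 8 higher and 1 lower in HT and a median log2 fold change of 0.033. Among the targets of RBFOX1, of the PTB proteins or of the ELAVL proteins were *Vamp2* (0.019) and *Vamp1* (0.15), which encode proteins of vesicle fusion, *Sv2a* (0.033), a synaptic vesicle protein, *Dlg4* (0.0044), which encodes PSD-95, *Kif5a* (0.042), a kinesin of axons, and *Gap43* (0.052), a growth cone protein. *Rest*, the repressor of neuronal genes whose splicing SRRM4 alters, had 341 ± 35.2 normalized counts over the 5 HT libraries and 358 ± 45.4 over the 5 WT libraries (SD), a log2 fold change of -0.066. The list without HT 4 had a median of 0.031, with 8 higher and 1 lower, and the values were 0.024 for *Vamp2*, 0.081 for *Vamp1*, 0.015 for *Sv2a*, 0.031 for *Dlg4*, 0.029 for *Gap43* and -0.052 for *Rest*. *Kif5a* then had a log2 fold change of 0.11, with each HT library above each WT library (1.75% of all genes) and a limma adjusted p of 0.446. *Kif5a* had 19038 ± 2096 in HT with all libraries and 18398 ± 616 in WT. The host transcripts of miR-124, *Mir124a-1hg* and *Mir124-2hg*, had 2048 ± 131 and 2403 ± 149 normalized counts (SD) over the 5 HT libraries, against 1951 ± 275 and 2254 ± 181 (SD) over the 5 WT libraries, with log2 fold changes of 0.078 and 0.094 and limma adjusted p values of 1.00 (0.11 and 0.088 without HT 4). They measure the precursors and not the mature microRNA.

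The lists of other cell types in the dissected brain had medians near 0 for some and farther from 0 for others. Choroid plexus markers were lower in HT for 3 of 3 genes (median log2 fold change -0.46), meningeal markers for 4 of 4 (-0.53) and microglial markers for 6 of 6 (-0.19), while erythroid markers were higher for 4 of 4 (0.48). Of all genes, 46.4% were above 0. The astrocyte (0.033), oligodendrocyte lineage (0.042) and endothelial and mural (-0.047) lists had medians closer to 0. Across the 7 lists, the medians without HT 4 were -0.48 for choroid plexus, -0.65 for meninges, -0.29 for microglia, 0.42 for erythroid cells, -0.025 for astrocytes, -0.038 for the oligodendrocyte lineage and -0.13 for endothelial and mural cells. None of these markers passed the limma threshold. Summed counts were 6425 to 9268 in HT and 9797 to 13393 in WT for choroid plexus, 4852 to 9062 and 5546 to 30309 for meninges, 1097 to 1657 and 1220 to 2191 for microglia, and 3991 to 9483 and 3105 to 9271 for erythroid cells, with 0 markers at 0. The choroid plexus sums did not overlap between the groups (nor did the counts of 0.629% of all genes). Most of each sum was *Ttr*, with means of 8118 in HT and 11181 in WT, while *Clic6* and *Kl* overlapped between the groups. For meninges, WT 3 (30309) and WT 2 (11441) held the high sums, and the other 3 WT libraries (5546 to 6931) lay within the HT range. The progenitor form of the pair, *Ptbp1*, is also used by non-neuronal cells, and the part of these cells in its count was not tested.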

How the data were processed

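Groups and replicate numbers come from the labels. Per the study's methods and the labels, the authors quantified paired-end reads against GRCm38 with Salmon 1.1.0, corrected for GC bias, and divided gene estimates by DESeq2 1.30.1 size factors. The deposited signal values are thus normalized counts. The annotation release, the filter on low genes and the use of strand are not given in the sources used here. Whole reads could not be recovered, so no count test was run. Sequencing depth is not known, because the size factors are already divided out of the totals of normalized counts.

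Values were analyzed as log2(value + 1), which understates changes of low genes, with limma 3.58.1 in R 4.3.3 (limma-trend, robust empirical Bayes, genotype alone, two-sided). Of all genes, 17020 with a mean of at least 10 were tested and 1424 were left out, with Benjamini-Hochberg adjustment over all tested and a threshold of 0.05. The workflow was tested on simulated data. Single values were tested by exact two-sided permutation over 252 assignments (smallest p 0.00794). The p values set the difference between the groups against the spread between these libraries. They take the libraries as independent, although the labels do not say which pups shared a dam.

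Symbols, positions, lengths, exon sequences and shared 31-base words come from GENCODE M21 (18431 identifiers matched). The regulators, the lists and the ratio were chosen with earlier results of these data known. Named are *Arid1b*, the regulators, every gene of pathway lists under 10 genes, and the smallest p in each direction of longer pathway lists. Marker lists are given by counts, medians and sums. *Plppr3*, the CELF genes, *Srrm1* and the single neuron, progenitor and choroid plexus markers were named after their values were seen. Lists were counted in full, but values of 2 of their genes are not reported here. Alternatives were another pseudocount, filter and scaling, sample weights, removal of the length trend, a replicate block, each library left out and, chosen after seeing the data, HT 4 left out with the length trend removed. Deviations of same-numbered libraries correlated at 0.082 to 0.093 in 4 pairs and at -0.10 in the pair with HT 4, none over the limit of 0.1 set for pairing, so the numbers were not taken as pairs.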

Additional observations from a re-analysis of the deposited data

Results flagged for a closer look

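A library was marked when its gap to the nearest library of its group exceeded 0.710 of the range of the group. Of 42 groups checked, 8 were marked, where about 2.1 would be by chance, and 5 of the 8 were HT 4. HT 4 was lowest among the HT libraries for *Rbfox1* (3262, nearest 4292), *Rbfox2* (12157, nearest 16210), *Nova2* (6508, nearest 8457), *Srrm4* (2277, nearest 2955) and *Arid1b* (1505, nearest 2142). Among the WT libraries, WT 5 was lowest for *Ptbp1* (1501, nearest 1670) and WT 2 was lowest for the log2 ratio of *Elavl3* to *Elavl4* (1.79, nearest 2.01). HT 5 was lowest among the HT libraries for *Nova1* (4202, nearest 4543).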

How the results depend on the processing

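Over all alternatives, 0 of the 10 regulators and 0 genes of the related lists had a limma adjusted p under 0.05, and pseudocount 5, no filter and a mean of at least 100 changed no direction. The count of all genes called was 0 with all libraries, 2 with sample weights, 1 with the length trend removed (*Arid1b*) and 2 without HT 4 and with the length trend removed. Leaving out 1 library gave 0 to 2 (2 without HT 4), and 447 (without WT 3) to 1429 (without HT 4) genes at an unadjusted p under 0.05. The difference in the log2 ratio of *Ptbp1* to *Ptbp2* ranged from -0.21 (without HT 4) to -0.087 (without HT 5) with 1 library left out, and was -0.22 (exact permutation p = 0.00794) without HT 4 and with the length trend removed. Of the alternatives run for the ratio (pseudocount, length trend, replicate block and each library left out), it passed the threshold only without HT 4. Sample weights, the filters and scaling to totals were not run for it. The cause was not tested. With the replicate number as a block, 0 genes were called, the ratio differed by -0.13 with a paired exact permutation p of 0.188 (smallest possible 0.0625), and no call changed. Of the libraries, 4 of 5 HT and 2 of 5 WT correlated best with the library of their own number.

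Log2 fold changes turned sign under these alternatives. Sample weights gave 0.062 for *Rbfox1*, 0.032 for *Rbfox2*, 0.0076 for *Rbfox3*, 0.016 for *Nova2* and 0.024 for *Elavl3*. Scaling to library totals gave -0.0020 for *Ptbp3* and -0.0022 for *Dlg4*. Removing the length trend gave 4.0e-04 for *Elavl3*, and doing so without HT 4 gave 0.11 for *Rbfox1*, 0.071 for *Rbfox2*, 0.041 for *Rbfox3* and 0.025 for *Elavl3*. With 1 library left out, the ranges were -0.021 to 0.074 for *Ptbp2*, -0.038 to 0.083 for *Rbfox1*, -0.080 to 0.054 for *Rbfox2*, -0.078 to 0.033 for *Rbfox3*, -0.087 to 0.034 for *Nova2*, -0.12 to 0.010 for *Srrm4*, -0.046 to 0.036 for *Elavl3*, -0.048 to 0.10 for *Ptbp3*, -0.0078 to 0.073 for *Elavl2*, and -0.017 to 0.031 for *Dlg4*. The upper end came from leaving out HT 4 in each case. With 5 libraries per group, the widest interval among the regulators, that of *Srrm4*, ran from -0.27 to 0.12, and the depth behind single transcripts or exons is unknown.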
